A study of Mus musculus with 4 samples.

Results

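MHC class II high macrophages were examined within single-cell RNA sequencing of efferocytic and non-efferocytic bone marrow (BM) macrophages. A cell was a barcode with at least 200 genes, at least 1000 unique molecular identifiers (UMIs, 1 for each captured mRNA molecule) and at most 10% mitochondrial UMIs. A cell was called class II high when Cd74, H2-Aa, H2-Ab1 and H2-Eb1 together had at least 10 UMIs and at least 10 per 10000 UMIs of that cell. This rule took 2170 of 36794 cells, and the other cells of the same library are called the remaining cells. The cells were thus chosen by the UMI counts of these 4 genes, which are described here and were not tested.

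MHC class II molecules carry peptides from engulfed protein to the cell surface, where CD4+ T cells read them. H2-Aa and H2-Ab1 form the 2 chains of I-A, H2-Eb1 is the beta chain of I-E, and Cd74 encodes the invariant chain that guides new class II molecules to the endosome and fills their groove on the way. H2-DMa and H2-DMb1 encode chains of H2-M, which exchanges the invariant chain fragment for peptide, and Ciita is the transactivator on which class II transcription depends. Macrophages carry class II at varied levels, and dendritic cells and B cells carry it as a rule. Cd74 is also a surface receptor for the cytokine MIF.

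The macrophages came from BM of male C57BL/6J mice, of 4 to 6 weeks of age in the general methods and of 4 weeks for the single-cell experiments, and grew for 4 days with M-CSF, the growth factor of this lineage. They were then kept in low serum for 16–18 h in the co-culture experiments with RM1 cells, a mouse prostate cancer line made with Ras and Myc in C57BL/6J mice, which had been killed by UV light and labeled with the dye CFSE. Cells positive for F4/80, a macrophage surface protein, and for CFSE were sorted as efferocytic, and cells positive for F4/80 only as non-efferocytic. Each of 2 experiments gave 1 library per group with a 10X Genomics 3′ kit, so each group has 2 libraries. The study describes the non-efferocytic cells in some places as cells that did not engulf and in another as macrophages alone. The sources used here do not state how many mice went into a library.

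The 4 libraries held between 6695 and 13411 cells with 101216659 to 155224183 UMIs. The non-efferocytic and efferocytic libraries of Experiment 2 had 118 cell barcodes in common, against 14 to 23 for every other pair of libraries. Of these barcodes, 12 were class II high in the non-efferocytic and 8 in the efferocytic library, 7 of them in both, and all 7 had at least 3 UMIs of B cell markers. All 8 class II high cells with B cell markers in the efferocytic library of Experiment 2 lay on shared barcodes and had between 1039 and 2368 UMIs. The share of class II high cells, the sum of B cell markers and Igkc are given with and without shared barcodes.

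Class II high cells were 8.25% of the non-efferocytic cells in Experiment 1 (683 of 8280, exact 95% binomial interval 7.66 to 8.86%) and 9.97% in Experiment 2 (1337 of 13411, 9.47 to 10.5%). They were 0.702% of the efferocytic cells in Experiment 1 (47 of 6695, 0.516 to 0.932%) and 1.23% in Experiment 2 (103 of 8408, 1.00 to 1.48%). In both experiments the share was higher in the non-efferocytic library. The intervals cover counting error within a library only, and the difference of the share between the groups was not tested. Depth differed between the groups, with a median of 12648 and 13015 UMIs in non-efferocytic and 17534 and 17887 in efferocytic class II high cells. Leaving out cells under 5000 UMIs (1099 and 3404 non-efferocytic and 544 and 505 efferocytic cells, of which 17, 66, 1 and 16 were class II high), thinning the others to 5000 UMIs and asking for 5 UMIs of the 4 genes, the shares were 10.1 and 13.6% against 0.910 and 1.29%. Without shared barcodes the share was 1.15% in the efferocytic library of Experiment 2 and 10.00% in its non-efferocytic partner.

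**Figure D1:**
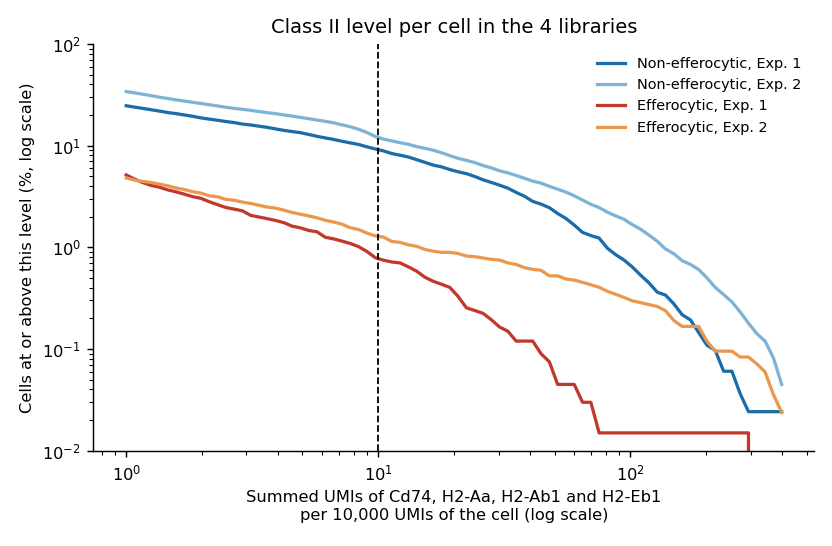
Share of the cells of each library (y axis, percent, log scale) at or above each level of the 4 class II genes (x axis, UMIs per 10,000 UMIs of the cell, log scale), 1 line per library. The 2 non-efferocytic lines lie above the 2 efferocytic lines up to 100 per 10,000. The efferocytic line of Experiment 2 lies above the non-efferocytic line of Experiment 1 at 187 per 10,000, with 0.167% against 0.145% of cells. The curve counts cells by level alone and so includes cells with under 10 UMIs of the 4 genes.

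Among class II high cells the median level of the 4 genes was 28.8 and 34.7 UMIs per 10000 in the non-efferocytic libraries of Experiments 1 and 2 and 18.9 and 39.6 in the efferocytic libraries. The groups overlap in this level, with the efferocytic library of Experiment 1 the lowest and that of Experiment 2 the highest. Of the 47 efferocytic class II high cells of Experiment 1, 37 had under 30 UMIs per 10000, and 1 had 100 or more. Of the 103 of Experiment 2, 26 had 100 or more. Cd74 was the most abundant of the 4 genes in every library, at 2854 and 3749 CPM (UMIs of a gene per 1000000 UMIs of the sum) in non-efferocytic and 1681 and 4334 in efferocytic class II high cells. In the remaining cells the non-efferocytic libraries had 56.1 and 74.3 CPM of Cd74 and the efferocytic ones 15.1 and 14.7 CPM. H2-Aa stood at 539 and 815 CPM in class II high cells of non-efferocytic libraries and 399 and 1035 CPM in those of efferocytic ones, and at most at 7.79 CPM in the remaining cells of any library.

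The threshold fell within a continuous range of levels. Just inside it, at under 12 UMIs per 10000, were 64 and 95 non-efferocytic and 6 and 13 efferocytic cells of Experiments 1 and 2. Just outside it, at 8 or more per 10000 with the rule not met, were 183 and 673 non-efferocytic and 24 and 26 efferocytic cells. Class II high cells held 86.4 and 90.5% of the UMIs of the 4 genes in the cells of the non-efferocytic libraries, and 52.4 and 81.1% in the efferocytic libraries. The remaining cells held 0.731 and 0.988 UMIs of the 4 genes per 10000 in non-efferocytic and 0.185 and 0.182 in efferocytic libraries. Barcodes with 10 to under 100 UMIs, taken here as free RNA, held more, at 23.1 to 39.1 per 10000. That is above the threshold of 10 per 10000 in every library. In the efferocytic library of Experiment 1 it was 39.1, above the median of 18.9 in class II high cells. The share of class II high cells with free RNA removed was not tested.

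Summed over cells, class II high cells carried the defining markers of macrophages, but not in every cell. In Experiment 2, 6 class II high cells of each library had under 3 UMIs of the 14 macrophage markers together. In Experiment 1 there were 0 such cells. All 8 class II high cells with B cell markers in the efferocytic library of Experiment 2 had at most 10 UMIs of macrophage markers. Adgre1, which encodes F4/80, was at 561 and 517 CPM in non-efferocytic class II high cells and 521 and 498 CPM in the remaining cells of Experiments 1 and 2, and at 444 and 401 against 381 and 349 CPM in efferocytic libraries. Csf1r, the receptor of M-CSF, was at 960.1 and 807 against 838 and 719.9 CPM and at 556 and 423 against 362 and 299 CPM in the same order. Of 14 macrophage markers, 7 were higher and 1 lower in non-efferocytic class II high cells, and 9 were higher and 2 (Mrc1 and Mertk) lower in efferocytic ones. Lyz2, which encodes lysozyme, was the most abundant, at 38169 and 36054 against 31449.6 and 26216 CPM in non-efferocytic libraries.

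Markers of other cells were present in some class II high cells. At least 3 UMIs of dendritic cell markers were found in 7.03 and 6.81% of non-efferocytic and 17.0 and 22.3% of efferocytic class II high cells, against 2.76, 2.72, 5.85 and 4.44% of the remaining cells. Depth differed between the groups, and these shares were not thinned to equal depth. Summed over 16 dendritic cell markers the non-efferocytic class II high cells had 50.4 and 50.3 CPM and the efferocytic ones 75 and 86.7 CPM, against 25.3 to 36.1 CPM in the remaining cells. Most of this was Itgax and Batf3, while Ccr7 and Ccl17 had no UMI in any class II high cell, and Flt3, Xcr1 and Cd209a were at 0.0540 CPM or less in each library. B cell markers summed to 7.05, 12.3, 16.3 and 40.1 CPM (non-efferocytic, then efferocytic), against 3.70 to 6.24 CPM in the remaining cells, and to 7.07, 9.01, 16.3 and 7.61 CPM without shared barcodes. Without cells that had 3 UMIs of B cell markers, the shares of class II high cells were 8.24 and 9.93% in non-efferocytic and 0.705 and 1.14% in efferocytic libraries. The part of cells with dendritic cell markers in these shares was not tested.

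The other genes of class II high cells were compared with the remaining cells of the same library by summing UMIs per library and class of cell. The fit was edgeR's quasi-likelihood test with the library as a block, on 13138 genes without the 4 that chose the cells, and a gene was called at a Benjamini-Hochberg adjusted p under 0.05. Since transcripts of the same cells chose the class, these calls describe how the chosen cells differ and are no independent test of the class. In non-efferocytic libraries 1613 genes (12.3%) were called higher and 1122 (8.54%) lower in class II high cells, and in efferocytic libraries 807 (6.14%) higher and 669 (5.09%) lower. Scaling to library totals in place of TMM moved the median of all genes from 0.01 to -0.14 and from -0.08 to -0.19 on the log2 scale. With library totals the split became 663 higher and 2685 lower in non-efferocytic and 607 higher and 1219 lower in efferocytic libraries. Without the library block fewer genes were called in 25 of 27 gene lists in non-efferocytic and in 24 in efferocytic libraries, and with DESeq2 in 24 and 11. Of the genes called higher, 672 were so in both groups, 41.7% of those of the non-efferocytic and 83.3% of those of the efferocytic libraries. Of the genes called lower, 391 were so in both, 34.8% and 58.4%, and 4 genes lower in non-efferocytic were higher in efferocytic libraries.

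Ciita and the H2-M genes were among the genes with the largest differences. Ciita was at 31.9 and 37.8 CPM in non-efferocytic class II high cells and at 3.93 and 3.30 CPM in the remaining cells of Experiments 1 and 2. It was at 16.3 and 22.1 CPM in efferocytic class II high cells and at 0.451 and 0.182 CPM in the remaining cells. Every class II high sum lay above every sum of remaining cells, and the log2 fold change was 3.44 ± 0.15 (SE) in non-efferocytic and 6.21 ± 0.44 in efferocytic libraries (adjusted p = 2.6e-14 and 1.8e-10, edgeR). H2-DMa was at 241 and 261 against 37.6 and 37.1 CPM in non-efferocytic and at 190.3 and 204 against 19.1 and 15.0 CPM in efferocytic libraries, log2 fold changes of 2.90 ± 0.07 and 3.69 ± 0.12. H2-DMb1 was at 139.7 and 187 against 23.9 and 23.4 CPM and at 107 and 173 against 15.9 and 15.9 CPM, log2 fold changes of 2.94 ± 0.09 and 3.32 ± 0.16. H2-DMb1 and H2-DMb2 are close copies, so reads may have been split between them.

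H2-Oa, H2-Ob and H2-DMb2 were called higher in efferocytic class II high cells, but each was at 0 there in Experiment 1 and at 5.82, 3.49 and 6.98 CPM in Experiment 2. H2-Oa and H2-Ob encode H2-O, an inhibitor of H2-M known from B cells. After removal of cells with 3 UMIs of another cell type, 3 of these 5 class II chains had enough UMIs to be tested, and H2-DMa and H2-DMb1 were called in each group.

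Class II promoters are known to be bound by the RFX and NF-Y factors with Ciita on a shared set of elements, and those of H2-Aa and H2-Eb1, which chose the cells, and of H2-DMb1, which did not, are printed to show these letters. The sequences are from RefSeq on build GRCm38.p6, the 150 bases before the transcript start for H2-Aa and H2-Eb1 and 30 bases of that window, which end before its ATTGG, for H2-DMb1, with capitals for ATTGG or CCAAT, the core of the Y element bound by NF-Y, and for AACTGATGATGCT, the longest run of letters that the windows of H2-Eb1 and H2-DMb1 share.
H2-Aa, chr17:34287824-34287973, minus strand: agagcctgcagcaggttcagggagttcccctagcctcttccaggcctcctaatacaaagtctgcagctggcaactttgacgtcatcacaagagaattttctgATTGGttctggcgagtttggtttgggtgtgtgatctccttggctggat
H2-Eb1, chr17:34305717-34305866, plus strand: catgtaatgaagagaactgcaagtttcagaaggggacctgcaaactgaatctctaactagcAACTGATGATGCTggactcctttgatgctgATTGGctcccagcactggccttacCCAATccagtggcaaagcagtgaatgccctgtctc
H2-DMb1, chr17:34153099-34153128, plus strand, the 30 bases from the run on: AACTGATGATGCTaggctgattcactcagt

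ATTGG began 48 bases before the RefSeq start in H2-Aa, 59 in H2-Eb1 and 61 in H2-DMb1. In H2-Eb1 this run ended 17 bases before ATTGG, and in H2-DMb1 it ended 18 bases before it. ATTGG or CCAAT was found, on either strand, in 8047 of 32851 windows of this length (24.5%). The run was found in 2, those it was taken from. The windows of H2-DMb2, H2-Oa and H2-Ob also hold ATTGG, while neither window of H2-DMa and none of those of Axl, Ccr2, Clec4b1, Plbd1 and Sh2d1b1 holds either motif. A match is a description of the letters only. The windows follow RefSeq starts. By GENCODE vM21 those of H2-DMa and Ccr2 and the printed bases of H2-DMb1 lie inside the gene. The genes start there at 34119541, 124101950 and 34153072. Bases before the GENCODE starts of H2-DMa and Ccr2 were not searched. In GENCODE vM21 H2-Aa, H2-Ab1, H2-Eb1, H2-DMa and H2-DMb1 lie on chromosome 17, such as H2-DMa at 34119541-34139101 and H2-Ab1 at 34257689-34269419, and Ciita lies on chromosome 16 at 10480059-10528418.

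Of 12 regulators of class II tested beside Ciita, 6 were higher and 1 lower in non-efferocytic class II high cells, with a median log2 fold change of 0.24, and 4 were higher in efferocytic ones, with a median of 0.40 (all genes tested 0.01 and -0.08). With Ciita included, 2 of 13 were called higher in non-efferocytic libraries with library totals, with DESeq2 and without the library block, against 7 with TMM and the block in edgeR. March1, a ubiquitin ligase that removes class II from the surface, was at 35.3 and 37.3 against 23.2 and 24.2 CPM in non-efferocytic and at 20.7 and 26.8 against 8.95 and 8.21 CPM in efferocytic libraries. Class II high cells were above the remaining cells in each library, with log2 fold changes of 0.77 ± 0.08 and 1.65 ± 0.22. Irf8 and Spi1, transcription factors of the myeloid lineage, differed by log2 0.25 ± 0.06 and 0.20 ± 0.06 in non-efferocytic libraries. Nfya, a subunit of NF-Y, fell by 0.21 on the log2 scale in non-efferocytic class II high cells (SE 0.07).

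Among 11 lysosomal genes of antigen processing, 4 were higher and 2 lower in non-efferocytic class II high cells, and 3 were higher and 3 lower in efferocytic ones. The median log2 fold changes were 0.07 and 0.01, and with library totals both were below 0, at -0.08 and -0.09. Ctss, the protease that trims the invariant chain, was at 5923 and 6244 against 4679.9 and 4981 CPM in non-efferocytic and at 6593 and 6297 against 4865 and 4574 CPM in efferocytic libraries (log2 0.48 ± 0.08 and 0.56 ± 0.08). Ctsh, an aminopeptidase, differed by log2 0.91 ± 0.08 and 1.04 ± 0.10. Ctsl, another cathepsin, went the other way, at 796 and 952 against 1129.6 and 1459 CPM in non-efferocytic and at 1254 and 1241 against 2214 and 2719 CPM in efferocytic libraries.

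**Figure D2:**
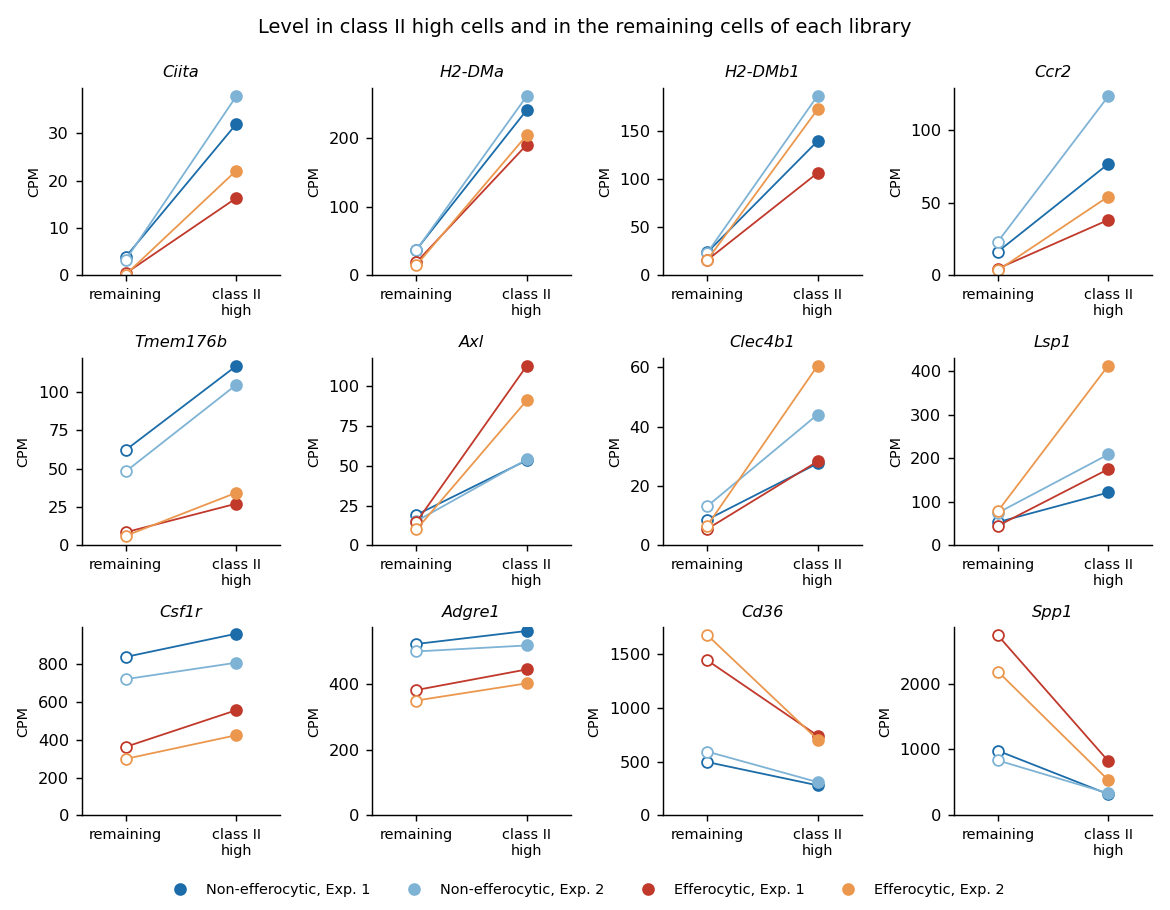
Level in CPM (y axes from 0) of selected genes in the remaining cells (open points) and the class II high cells (filled points) of each library, joined by a line, 1 color per library. Ciita was below 4 CPM in every sum of remaining cells and at 16.3 to 37.8 CPM in class II high cells.

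Ccr2 and Cx3cr1, chemokine receptors of monocytes, were higher in class II high cells. Ccr2, the receptor for Ccl2, was at 76.5 and 123 CPM in non-efferocytic class II high cells and at 16.3 and 23.2 CPM in the remaining cells. It was at 38.1 and 54.1 against 4.71 and 3.50 CPM in efferocytic libraries. The classes did not overlap within a group, and the log2 fold changes were 2.48 ± 0.08 and 3.72 ± 0.22. Cx3cr1, the fractalkine receptor, differed by log2 1.55 ± 0.21 and 3.67 ± 0.71, at 9.33 CPM or less in every sum. Of 10 chemoattractant receptors, 3 were higher and 3 lower in non-efferocytic libraries, and 4 were higher and 2 lower in efferocytic ones.

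Chemokine ligands were split. Of 18 tested, 8 were higher and 6 lower in non-efferocytic class II high cells, and 3 higher and 4 lower in efferocytic ones, with medians of 0.02 and -1.02 (0 with genes at no UMI set to their bound). Ccl6 was higher, by log2 0.70 ± 0.07 and 1.02 ± 0.08. Ccl4 was at 64.2 and 37.1 against 128 and 72.9 CPM in non-efferocytic and at 26.1 and 34.3 against 140.5 and 133 CPM in efferocytic libraries, lower in class II high cells of each library. Ccl5 was uneven between experiments in non-efferocytic libraries, at 36.4 against 4.61 CPM in Experiment 1 and at 50.5 against 34.5 CPM in Experiment 2. Its log2 fold change of 1.58 ± 0.25 was 3.1 without the library of Experiment 2 and 0.72 without that of Experiment 1.

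Receptors for dying cells moved in both directions. Axl, a receptor for Gas6 bound to dying cells, was at 53.6 and 54.1 against 19.2 and 15.3 CPM in non-efferocytic libraries. It was at 113 and 91.3 against 14.7 and 9.99 CPM in efferocytic libraries. The class II high cells were above the remaining cells in each library, by log2 1.82 ± 0.09 and 3.19 ± 0.15. Its ligand Gas6 was lower, at 318 and 226 against 452 and 395 CPM and at 235 and 145 against 399 and 478 CPM, and its call in non-efferocytic libraries was lost without the library of Experiment 2 (log2 -0.38 against -0.51). The scavenger receptor Cd36 was also lower, at 279 and 309.7 against 496 and 594 CPM in non-efferocytic and at 743 and 706 against 1445 and 1680.2 CPM in efferocytic libraries. Of 17 genes of engulfment, 4 were higher and 4 lower in non-efferocytic class II high cells, and 2 higher and 6 lower in efferocytic ones, with median log2 fold changes of -0.04 and -0.22.

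Of 13 genes of lipid-laden macrophages tested, 6 were lower and 1, Apoe, higher in non-efferocytic class II high cells, and 7 were lower and Apoe higher in efferocytic ones, with medians of -0.12 and -0.45. Spp1, which encodes osteopontin, was at 321 and 334 against 981 and 834 CPM in non-efferocytic and at 824 and 535 against 2733 and 2184 CPM in efferocytic libraries. Its log2 fold changes were -1.31 ± 0.08 and -1.78 ± 0.09, with class II high cells lower in each library. Fabp4, a fatty acid carrier, changed by -0.58 ± 0.08 and -1.14 ± 0.10.

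Among genes of the interferon response more were higher than lower. Of 16 type I interferon genes, 15 were higher in non-efferocytic class II high cells (median 0.50) and 6 in efferocytic ones (median 0.26), and none was lower. Of 16 interferon gamma genes, 11 and 2 were higher (medians 0.40 and 0.45), and of 18 MHC class I genes, 12 and 8 were higher, with Calr lower in efferocytic libraries (medians 0.27 and 0.37). With library totals, 7 class I genes were higher and 3 lower in non-efferocytic libraries. Without the library block, which treats the 2 sums of a library as unrelated, edgeR called 0 genes of the 3 lists in non-efferocytic libraries (0, 4 and 7 at an unadjusted p under 0.05), and DESeq2 with the block called 6, 3 and 5. Isg15 was at 91.1 and 50.04 against 66.5 and 34.4 CPM in non-efferocytic and at 97.9 and 21.5 against 61.2 and 17.3 CPM in efferocytic libraries, so the experiments differed more than the classes. Psmb9, an immunoproteasome subunit, differed by log2 0.62 ± 0.06 and 0.88 ± 0.11, and the class I gene H2-T23 by 0.60 ± 0.07 and 0.50 ± 0.09.

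The co-stimulatory and inhibitory ligands that T cells read beside class II were taken as 1 list. Of 10 tested, 4 (Cd40, Cd83, Vsir and Pdcd1lg2) were higher in non-efferocytic and 3 (Cd83, Cd86 and Vsir) in efferocytic class II high cells, with medians of 0.20 and 0.53. Cd40, Cd83 and Cd86 are linked to co-stimulation, while Vsir (VISTA) and Pdcd1lg2 (PD-L2) are inhibitory ligands. With library totals edgeR called 0 of the 10 in non-efferocytic libraries (2 at an unadjusted p under 0.05), and DESeq2 called 1. Cd83 was at 43.8 and 44.9 against 43.0 and 43.0 CPM in non-efferocytic and at 44.6 and 50.02 against 24.2 and 25.6 CPM in efferocytic libraries, a log2 fold change of 1.05 ± 0.14 in the latter. Cd86 was at 5.44 and 7.56 against 3.33 and 2.34 CPM in efferocytic libraries.

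Of 11 alternative activation genes tested, 5 were higher and 1, Chil3, lower in non-efferocytic class II high cells (median 0.16), and 3 were higher and 3 lower in efferocytic ones (median 1.37). In efferocytic class II high cells Chil3 had 0 UMIs, Arg1 and Cish 1, Ccl24 2, and Cd163 and Pdcd1lg2 3. The median of 1.37 thus rests in part on genes near the floor, such as Cd163 (ratio 2.92, exact interval 0.593 to 8.77). Ear2 and the lectins Clec10a and Mgl2 were higher in both groups, and Mrc1, Chil3 and Arg1 were lower in efferocytic class II high cells. Cells with 3 UMIs of another cell type were then left out. In non-efferocytic libraries 4 of the 11 were higher and none lower (edgeR, 5 at an unadjusted p under 0.05), and Chil3 changed sign. In efferocytic libraries 2 were higher and 2 lower. Clec10a was at 113 and 88.7 against 66.2 and 58.8 CPM in non-efferocytic and at 54.4 and 36.1 against 21.3 and 15.9 CPM in efferocytic libraries, above the remaining cells in each. The ion channel genes Tmem176a and Tmem176b were both higher in both groups. Tmem176b was at 117 and 105 against 62.2 and 48.2 CPM and at 27.2 and 34.3 against 8.55 and 6.24 CPM, log2 fold changes of 1.17 ± 0.07 and 2.28 ± 0.23.

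Other genes with the largest differences included Clec4b1, a C-type lectin, at 27.6 and 44.0 against 8.65 and 13.2 CPM in non-efferocytic and 28.3 and 60.5 against 5.50 and 6.6 CPM in efferocytic libraries. Sh2d1b1, an adaptor of immune receptors, differed by log2 1.61 ± 0.09 and 2.67 ± 0.15, and Lsp1, an actin-binding protein of leukocytes, by 1.5 ± 0.08 and 2.37 ± 0.10. Plbd1, a phospholipase B-like protein, was at 9.74 and 15.7 against 1.97 and 2.23 CPM and at 9.79 and 32.0 against 0.782 and 0.469 CPM, log2 fold changes of 2.76 ± 0.24 and 5.39 ± 0.43. Fgr and Gm34084 were also among them. Among the genes that were lower, Tfrc, the transferrin receptor, was at 111 and 81.9 against 289 and 288 CPM in non-efferocytic and at 96.8 and 25.01 against 415 and 341 CPM in efferocytic libraries. Epas1, which encodes HIF-2α, was at 6.53 and 5.62 against 17.3 and 15.4 CPM and at 8.70 and 4.65 against 41.4 and 48.4 CPM, and Hmga2, a chromatin protein of growing cells, fell by 1.54 and by 2.78 on the log2 scale. Of 12 cycling genes, 10 were lower in non-efferocytic class II high cells (median -0.47), and 1, Pcna, in efferocytic ones (median -0.45). The first count was 3 with DESeq2 and 0 without the library block (edgeR, 4 at an unadjusted p under 0.05), and the second was 7 (median -1.05) without cells that had 3 UMIs of another cell type.

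**Figure D3:**
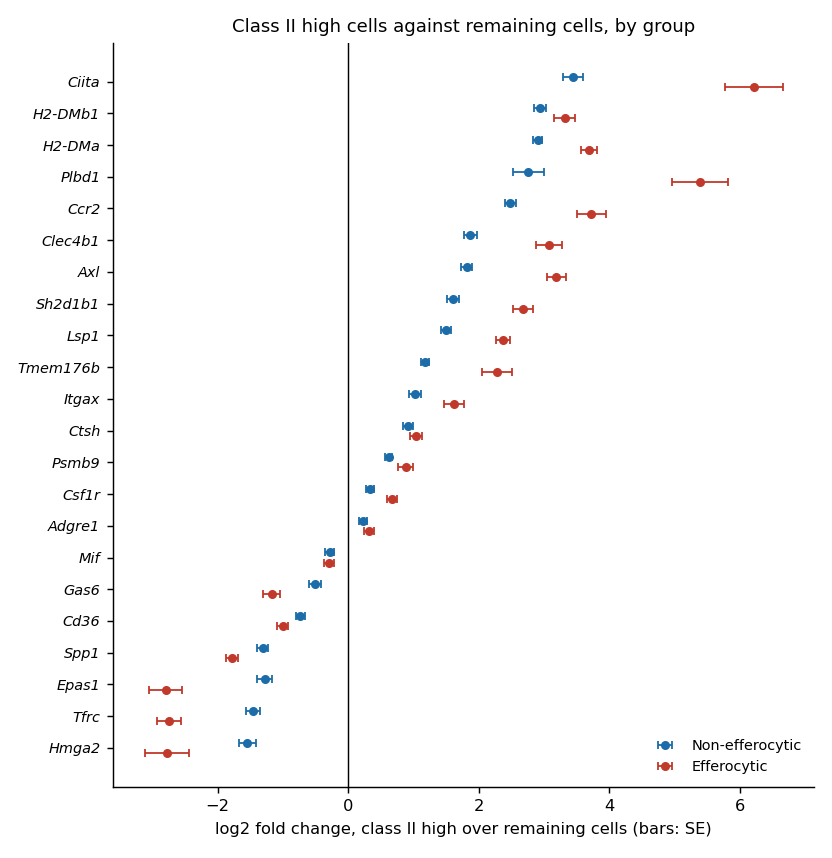
Log2 fold change of class II high over remaining cells (x axis, with SE) for named genes (y axis) in non-efferocytic and efferocytic libraries. Ciita, H2-DMa, H2-DMb1, Ccr2 and Axl lie right of 0 in both groups, and Tfrc, Epas1 and Spp1 left of 0.

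Genes of neutrophils and fibroblasts were also among the lowest, and in non-efferocytic libraries those of contractile cells. S100a9 was at 403 and 555 against 1209 and 1361 CPM in non-efferocytic and at 2.17 and 1.16 against 369.6 and 284 CPM in efferocytic libraries. Chil3, Lcn2 and Elane had no UMI in efferocytic class II high cells, at least 43.7-fold, 17.5-fold and 8.61-fold lower than in the remaining cells (floor of 3 UMIs over both libraries). At least 3 UMIs of neutrophil markers were found in 1.61 and 5.76% of non-efferocytic and 2.13 and 0% of efferocytic class II high cells, against 1.75, 5.54, 2.63 and 1.64% of the remaining cells. In the efferocytic library of Experiment 2, 0 of 103 cells allows a share of up to 2.91%. Without cells that had 3 UMIs of another cell type, S100a9 differed by log2 0.038 in efferocytic and -0.26 in non-efferocytic libraries and was called in neither. Of 8 neutrophil markers tested then, 2 (S100a8 at -0.30 and Camp at -0.68) were still called lower in non-efferocytic libraries and 0 in efferocytic ones (edgeR, 0 at an unadjusted p under 0.05). In that setting edgeR called 0 of 5 fibroblast and 0 of 8 contractile genes lower in either group, with 0 of them lower at an unadjusted p under 0.05 in non-efferocytic libraries. The fibroblast and neutrophil marker lists themselves chose the cells removed there. Summed over 7 fibroblast markers the level was 5.60 and 19.3 CPM in non-efferocytic class II high cells against 210.3 and 186 CPM in the remaining cells. Of 10 neutrophil markers, 7 were lower in non-efferocytic and 6 in efferocytic class II high cells. All 9 contractile genes, Tagln and Acta2 among them, were lower in non-efferocytic class II high cells. In efferocytic ones 0 of the 9 were called lower and 1, Thbs1, higher, before any removal of cells.

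Doublets moved with the class as well. Barcodes scored as doublets made up 10.2 and 20.3% of non-efferocytic and 4.26 and 1.94% of efferocytic class II high cells, against 6.29, 9.67, 5.37 and 6.79% of the remaining cells. With doublets removed, Ciita, H2-DMa, H2-DMb1, Ccr2 and Axl were called higher in both groups, as in all 20 settings. The larger effect of class on neutrophil genes in efferocytic libraries was not called without doublets, with 0 of 10 neutrophil markers called (edgeR, 1 at an unadjusted p under 0.05) against 5 with them. The neutrophil markers were still lower in class II high cells then, 9 of 10 in non-efferocytic and 6 of 10 in efferocytic libraries.

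Several of these genes followed the class II level within the class. From cells without a UMI of the 4 genes to those with 100 or more per 10000, Ciita was at 1.85, 5.21, 18.3, 22.9, 33.7 and 78.6 CPM in the non-efferocytic library of Experiment 1. In that of Experiment 2 it was at 1.61, 3.70, 10.2, 21.9, 38.0 and 80.0 CPM, and in the efferocytic library of Experiment 2 at 0.0826, 0.510, 2.97, 6.99, 14.7 and 64.9 CPM. It stood higher in each bin than in the one before. Between the lowest and the highest bin of class II high cells, H2-DMa was 2.5 to 2.81 times and H2-DMb1 4.13 to 4.64 times higher in the 3 libraries with at least 20 cells per bin, and H2-Eb1 23.6 to 38.3 times, which the binning itself sets. Ccr2 went from 61.1 to 180.1 CPM and from 93.9 to 226 CPM in non-efferocytic libraries over the same bins, and from 26.8 to 114 CPM in the efferocytic library of Experiment 2. Cd36 went down, from 282.5 to 161 CPM and from 343 to 242 CPM in non-efferocytic libraries. The bins share the library and the depth of its cells, and no test was made.

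**Figure D4:**
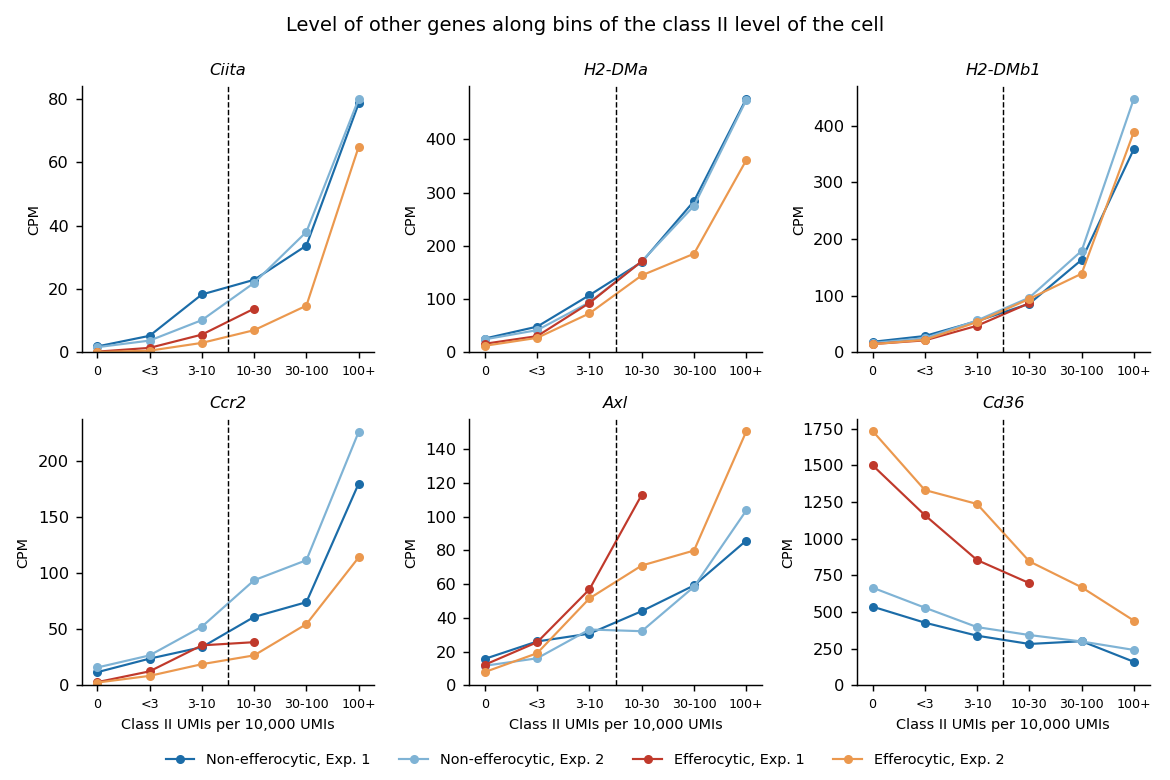
Level in CPM (y axes from 0) of genes that did not choose the cells along bins of the summed class II UMIs per 10,000 UMIs of the cell (x axis), 1 line per library. Class II high cells lie right of the dashed line, bins under 20 cells are not drawn, and the lines of Ciita, H2-DMa, H2-DMb1, Ccr2 and Axl end higher than they start while that of Cd36 ends lower.

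The difference between class II high and remaining cells was itself compared between efferocytic and non-efferocytic libraries in the same fit. It was larger in efferocytic libraries for 56 genes (0.426%) and smaller, or more negative, for 38 (0.289%). For Ciita it was larger by log2 2.77 ± 0.39 (adjusted p = 0.00032, edgeR), with a value of 1.78 that was not called without the efferocytic library of Experiment 2. It was larger for Axl by 1.37 ± 0.15, for Ccr2 by 1.24 ± 0.20, for H2-DMa by 0.78 ± 0.12 (0.63 and not called with doublets removed) and for Hpgd, which degrades prostaglandins, by 1.43 ± 0.14. Hpgd was at 140.3 and 41.9 against 34.1 and 9.32 CPM in efferocytic libraries and at 244 and 148 against 166 and 94.6 CPM in non-efferocytic ones. For H2-DMb1 the difference of 0.37 ± 0.16 was not called (adjusted p = 0.46).

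Efferocytic were then compared with non-efferocytic class II high cells, in a fit blocked by experiment, over 10018 genes that the rule did not use. Of these, 481 (4.8%) were higher and 394 (3.93%) lower in efferocytic class II high cells. For the remaining cells, on 13785 genes, the counts were 2687 (19.5%) higher and 2536 (18.4%) lower, or 1637 and 3682 with library totals. With library totals the split in class II high cells was 320 higher and 440 lower. The class II high sums hold 2638858 UMIs in the efferocytic libraries together, and the remaining cells 277583220.

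Glycolysis and Mif were higher in efferocytic class II high cells and in efferocytic remaining cells. Of 15 glycolytic genes, 9 were higher and none lower in class II high cells (median log2 fold change 0.87), and 11 were higher in the remaining cells (median 0.88). Ldha, lactate dehydrogenase, was at 429.5 and 406 CPM in efferocytic against 194 and 202 CPM in non-efferocytic class II high cells of Experiments 1 and 2, with no overlap of the groups. Its log2 fold change was 1.13 ± 0.10 in class II high and 1.23 ± 0.09 in the remaining cells (adjusted p = 1.6e-07 and 0.00054, edgeR). Mif was at 376 and 308 CPM in efferocytic against 127 and 134 CPM in non-efferocytic class II high cells, log2 1.43 ± 0.11, and 1.46 ± 0.09 in the remaining cells. Within libraries Mif was lower in class II high cells, by -0.29 ± 0.07 and -0.30 ± 0.08. The first of these calls was lost without either non-efferocytic library, at -0.25 and -0.33.

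Of the class II regulators, Ciita and Irf8 were lower in efferocytic class II high cells. Ciita changed by -0.78 ± 0.21 (adjusted p = 0.020, edgeR) and by -3.46 ± 0.27 in the remaining cells. In class II high cells it was called in 10 of 18 settings, with values from -1.05 to -0.61, and DESeq2 called 0 of 13 regulators (1 at an unadjusted p under 0.05), as did edgeR without the experiment block (3 at an unadjusted p under 0.05). H2-DMa differed by -0.29 ± 0.11 and H2-DMb1 by -0.16 ± 0.12, and neither was called (adjusted p = 0.11 and 0.48). H2-DMa was called lower with doublets removed (-0.40) and with library totals (-0.35), while both were lower in the efferocytic remaining cells, by -1.01 ± 0.11 and -0.45 ± 0.08. Ccr2 was at 38.1 and 54.1 CPM in efferocytic against 76.5 and 123 CPM in non-efferocytic class II high cells, log2 -1.06 ± 0.15, and -2.14 ± 0.22 in the remaining cells. Tmem176b changed by -1.74 ± 0.17 and Clec10a by -1.12 ± 0.15 in class II high cells. Of 12 interferon gamma genes tested, 4 were lower and none higher (median -0.79), against 1 lower without the experiment block and 0 with DESeq2 (2 at an unadjusted p under 0.05).

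Axl was higher in efferocytic class II high cells, at 113 and 91.3 CPM in efferocytic against 53.6 and 54.1 CPM in non-efferocytic class II high cells. The groups did not overlap, with a log2 fold change of 0.96 ± 0.14 in class II high cells (adjusted p = 0.00011, edgeR) and -0.37 ± 0.10 in the remaining cells. The latter was called in 11 of 18 settings, with values from -0.83 to -0.063. Cd36 was higher in efferocytic cells of both classes, by 1.36 ± 0.10 and 1.64 ± 0.12, and so was Spp1, by 1.08 ± 0.12 and 1.56 ± 0.13. Itgax, which encodes CD11c, was at 55.5 and 50.6 CPM against 24.6 and 22.7 CPM in class II high cells, log2 1.22 ± 0.17. It is also on the list of dendritic cell markers. At least 3 UMIs of that list were found in 17.0 and 22.3% of efferocytic class II high cells. In non-efferocytic ones the shares were 7.03 and 6.81%. Among the remaining cells they were 5.85 and 4.44% in efferocytic and 2.76 and 2.72% in non-efferocytic libraries. Efferocytic cells of both classes had more UMIs at the median. These shares were not thinned to equal depth, and shared barcodes were kept. Npy, neuropeptide Y, was at 133 and 163 against 25.3 and 47.0 CPM, log2 2.09 ± 0.15, and Ccr1, a chemokine receptor, at 21.7 and 36.1 against 5.39 and 8.81 CPM, log2 2.08 ± 0.24. Uchl1, Cdkn1c, Bcl2a1d, Cd300lf and Mmp8 were also among the most raised. Cd300lf and Mmp8 lost their call without the efferocytic library of Experiment 2, at log2 1.29 against 2.03 and 0.77 against 1.64. That fit also had no experiment block.

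**Figure D5:**
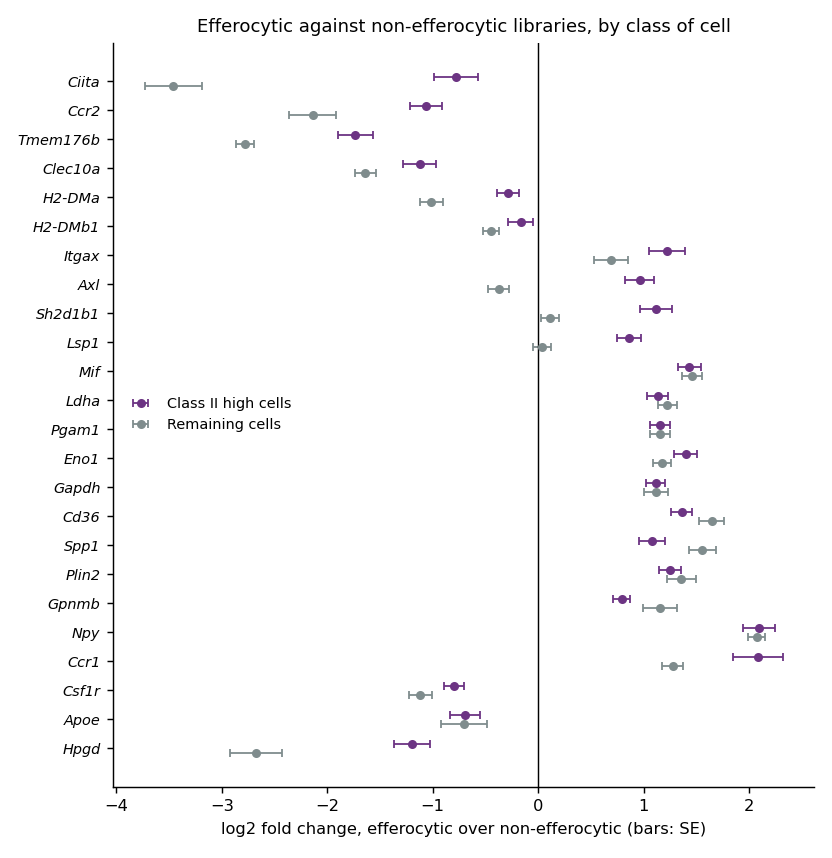
Log2 fold change of efferocytic over non-efferocytic libraries (x axis, with SE) for named genes (y axis) in class II high and in remaining cells. Mif and Ldha lie right of 0 in both classes, Axl right of 0 in class II high cells only, and Ciita left of 0 in both, farther in the remaining cells.

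Neutrophil genes were among the lowest in this comparison. All 7 tested neutrophil markers were lower in efferocytic class II high cells, with Elane at least 10.5-fold lower and Ngp at 1 UMI (ratio 0.00248, exact interval 6.27e-05 to 0.0138). Chil3 and Lcn2, which are not on that list and which neutrophil precursors also express, were at least 57.6-fold and 29.5-fold lower. Without cells that had 3 UMIs of another cell type, 3 of the 7 markers had enough UMIs to be tested and 1 was called lower (2 at an unadjusted p under 0.05). Igkc, an immunoglobulin chain, was at 0 and 43.6 CPM in efferocytic against 0.311 and 2.86 CPM in non-efferocytic class II high cells, and its log2 difference of 4.14 in the class effect between the groups was -8.99 without shared barcodes. Without shared barcodes 1045 genes were called between efferocytic and non-efferocytic class II high cells against 875 with them, and 870 genes were called in both.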

How the data were processed

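UMI counts per gene and barcode, which the authors deposited raw and unfiltered, were used as they stand. The authors had mapped reads of 4 libraries to mm10 with Cell Ranger. The methods, the submitters' processing notes and the headers of Experiment 1 name version 3.0.0, and the headers of Experiment 2 name 3.1.0. The Seurat 3.1 integration and clusters were not repeated. The filters on cells are those of the methods, applied here to all barcodes rather than to those Cell Ranger called as cells, so the cell sets are larger than the study's. The Cell Ranger calling rule, an alternative, left 7549 and 10615 non-efferocytic and 6158 and 7921 efferocytic cells.

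Counts were summed per library and class of cell and tested with edgeR 4.0.16 in R 4.3.3 (quasi-likelihood, TMM, filterByExpr, Benjamini-Hochberg, threshold 0.05). The comparison of classes used all 8 sums with the library as a block, and that of groups used 4 sums with the experiment as a block. With 1 library left out, the comparison of groups had no experiment block. The experiment comes from the labels. Deviations from the group means correlated within an experiment, at 0.412 in class II high cells (6732 genes) and 0.621 in remaining cells (7059 genes). The 4 genes of the rule were left out of sums and tests, while printed CPM are over all UMIs. An SE is the log2 fold change over the square root of F. The methods call for 3 or more mice per group in all experiments, and the libraries come from 2 independent experiments, but the mice behind each library are not given. Between classes, p-values measure how the difference of the classes varies between libraries of the same group. The block takes up the level of each library, and the 8 sums share 1 estimate of this spread per gene over both groups. Between groups, p-values measure how the difference of the groups varies between the 2 experiments. In both, edgeR estimates the spread of a gene partly from all genes tested, so the smallest p-values lean on that shared estimate. The fit was also run on simulated counts, and the outcome is not reported here.

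The cells, lists and tests were chosen with earlier results of these data known. Named were the 10 largest called changes per direction in each class comparison (same sign in both libraries, mean of at least 10 CPM), the 6 and 8 largest per direction for the difference and for class II high cells between groups, up to 4 per list, and a few fixed genes. Lists are described by counts and medians. Doublets were scored by the share of simulated pairs among 50 neighbours (Python 3.11.15, scikit-learn 1.9.0) and kept. DESeq2 1.42.0 and the other alternatives are given in the closing section. Removal of shared barcodes and of cells with B cell markers was chosen after seeing the data. Intervals and floors (3 counts) cover counting error only. Results for a few genes are not reported here.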

Additional observations from a re-analysis of the deposited data

Results flagged for a closer look

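The effect of class (class II high over remaining cells) differed between efferocytic and non-efferocytic libraries by the interaction test of edgeR for the 12 genes named by rule. On the log2 scale it was larger in efferocytic libraries for Igkc (4.14), Ciita (2.77), Thbs1 (1.54), Cytip (1.43), Hpgd (1.43) and Mmp8 (1.4). Thbs1 was at 44.6 and 10.5 CPM in efferocytic class II high cells against 12 and 9.15 CPM in the remaining cells, and its difference was 0.61 and not called without the efferocytic library of Experiment 1. Without the efferocytic library of Experiment 2, Ciita, Cytip and Mmp8 were at 1.78, 0.91 and 0.61 and were not called. The effect was lower in efferocytic libraries for Chil3 (-13.44), Lcn2 (-11.74), Elane (-11.30), Ngp (-6.47), S100a9 (-6.29) and S100a8 (-4.09). The values of Chil3, Lcn2 and Elane are fitted to 0 UMIs in efferocytic class II high cells and are no estimate of size. That of Ngp rests on 1 UMI there and ran from -14.16 (without the efferocytic library of Experiment 1) to -5.12 (without that of Experiment 2). S100a8 was at 12 and 4.65 CPM in efferocytic class II high cells against 380.4 and 267 CPM in the remaining cells. With doublets removed none of these 6 differences was called by edgeR, with Ngp at -4.55, S100a9 at -4.17 and S100a8 at -2.27, and 1 of 10 neutrophil markers was at an unadjusted p under 0.05 (DESeq2 with doublets kept called 4). The 6 genes with a larger effect kept their call. The part of neutrophil-marked cells in these values was not tested beyond the removal of these cells, given in the next section. Nor was the part of the class II level of the remaining cells, which was higher in non-efferocytic libraries.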

How the results depend on the processing

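Of the genes called, the counts moved by over 1.5 times in these settings. Between classes in non-efferocytic libraries 2735 genes became 1413 with 10% of UMIs removed as free RNA and 714 with DESeq2. The difference of the class effect (94 genes) became 11 with free RNA removed, 40 with DESeq2, 37 with doublets removed, 56 at a mean of at least 10 CPM, 195 with no filter on genes, 190 with cells of at least 10000 UMIs and 173 at a threshold of 20. Efferocytic against non-efferocytic class II high cells (875) became 514 with free RNA removed and 159 with DESeq2. For the remaining cells (5223) edgeR called 0 with free RNA removed (4336 at an unadjusted p under 0.05), 2966 at 10 CPM and 2900 with no filter, and DESeq2 called 3243. With no replicate block for library or experiment the 5 counts, with the class in efferocytic libraries (1476) second, were 177, 328, 3, 71 and 2346. The blocks pair sums of 1 library or libraries of 1 experiment. Leaving out 1 library gave 378 to 3476, 507 to 1768, 35 to 360, 91 to 999 and 0 to 2830. The lowest came without the non-efferocytic library of Experiment 2 for the first and last (3525 at an unadjusted p under 0.05), that of Experiment 1 for the fourth, and the efferocytic library of Experiment 2 for the others, and an arm of 1 library was assumed to vary like the rest. In the comparisons of efferocytic with non-efferocytic cells, the fits with 1 library left out also had no experiment block. The cause was not tested.

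The shares (non-efferocytic, then efferocytic, Experiments 1 and 2) were 11.8, 13.4, 1.34 and 2.00% at a threshold of 5 UMIs and 5 per 10000, and 4.88, 6.66, 0.284 and 0.749% at 20. The non-efferocytic shares were 10.3 and 15.3% in cells of at least 10000 UMIs, 8.97 and 12.2% with the Cell Ranger calling rule and 10.1 and 13.6% thinned. In Experiment 2 the non-efferocytic share was 8.90% without doublets and 10.5% at 5% mitochondrial UMIs.

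Of the values of named genes over these settings, 2447 kept direction and side of the threshold, 357 kept direction but lost the call, 7 gained a call and 26 changed sign. Without cells that had 3 UMIs of another type, the class effect in non-efferocytic libraries was 0.22 for Chil3, 0.087 for Ebf1, 0.17 for Elane, 0.73 for Fn1 and 0.34 for Vcan, and in efferocytic libraries 0.87 for Camp, 0.40 for Ngp and 0.038 for S100a9. The difference between groups was then 0.84 for Ngp, 0.094 for S100a8, 0.29 for S100a9 and -6.08 for Igkc. Leaving out 1 library moved this difference of Igkc from -7.48 (without the efferocytic library of Experiment 2) to 4.28, and it was -8.29 with at least 10000 UMIs, -8.99 without shared barcodes and -5.68 without B cell markers, while between groups Igkc in class II high cells ranged from -7.14 to 6.28. In non-efferocytic libraries, leaving out 1 of them gave -4.77 to 5.27 for Cd79a and -0.46 to 1.62 for Cxcl10 (lowest without Experiment 2), and -0.028 to 0.38 for Fos (lowest without Experiment 1). Hba-a1, Hba-a2 and Hbb-bs were at 0.58, 1.04 and 0.56 with at least 10000 UMIs, and the last 2 at 1.22 and 0.59 with DESeq2. Klk1b11 ranged from -0.089 (without Experiment 2) to 3.58 in efferocytic libraries. The efferocytic class II high sums hold 919651 and 1719207 UMIs, and the effect of this depth on the number of calls was not tested.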
